A study of Saccharomyces cerevisiae with 18 samples.

Results

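The nuclear RNA polymerases of budding yeast are built from the products of 31 genes, and the mRNAs of all 31 are described here in yeast carrying mutations in Spn1, a histone chaperone that travels with RNA polymerase II. The genes were chosen by their systematic names on the R64 assembly, and all 31 were found among the 6577 genes of the deposited matrix. They comprise 7 genes used by Pol I only, 7 by Pol II only and 10 by Pol III only, 2 shared by Pol I and Pol III, and 5 shared by all 3 enzymes.

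Poly-A RNA was sequenced from 3 genotypes, wild-type yeast, *spn1 K192N* and *spn1 141-305*, with 3 cultures of each grown to mid-exponential phase in rich medium (YPD) at 30 °C. Each culture received a spike-in of *S. pombe* cells before RNA extraction. In the study's strain description all 3 strains are MATa his3Δ1 leu2Δ0 met15Δ0 ura3Δ0 (the BY4741 background) with the chromosomal gene replaced (*spn1Δ::LEU2*), and the myc-tagged *SPN1* allele is carried on a *HIS3* centromeric plasmid. For wild-type the sample labels list instead the parental genotype, with no plasmid. The *spn1 K192N* protein has 1 substitution, which weakens its contact with the polymerase and Spt6, and the *spn1 141-305* protein keeps the conserved core and lacks the N- and C-terminal regions that bind histones and nucleosomes. For the strain markers, *URA3* and *MET17* (also called *MET15*) were listed at 0 in all 9 libraries while *LEU2* stood between 11.16 and 11.41 and *HIS3* between 12.97 and 14.89 on the log2 scale used here.

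Pol I transcribes the large ribosomal RNA precursor, Pol II the mRNAs, and Pol III the tRNAs and 5S rRNA. In each enzyme the largest and the second largest subunit together form the catalytic centre, and smaller subunits form a stalk, an assembly platform and, in Pol I and Pol III, built-in relatives of Pol II initiation factors. The mRNA of every subunit is itself made by Pol II, so these libraries report the supply of mRNA for all 3 enzymes and do not measure rRNA or tRNA. The 6 catalytic genes are also the longest, with coding lengths of 3450 to 5202 bp, whereas the other 25 range from 213 to 1965 bp.

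The subunit genes differ in promoter sequence by enzyme. The PAC motif, GATGAG on either strand, takes its name from polymerases A and C (Pol I and Pol III) and is a hallmark of ribosome biogenesis genes, as is the RRPE motif, AAAATTTT, which is its own reverse complement. Within the 300 bases before the start codon, PAC was present in 16 of 19 genes used by Pol I, Pol III or both, and in 0 of 12 genes used by Pol II only or by all 3 enzymes. Over 6007 nuclear coding genes 19.1% had such a match. The 3 without one among the first 19 were *RPA12*, *RPC17* and *RPC11*. RRPE was present in 12 of the 19 and 4 of the 12, against 9.42% of all coding genes. A match to the consensus of the general regulatory factor Abf1, on either strand, was found in 10 of 31 genes, against 14.9% of coding genes. It was in 4 of 5 genes common to all enzymes and 2 of 2 shared by Pol I and Pol III. Among genes of a single enzyme it was in 2 of 7 for Pol II, 2 of 10 for Pol III and 0 of 7 for Pol I. A match for Reb1, TTACCCG on either strand, was found in 5 of 31, against 7.89%. No match of one of these motifs overlapped a match of another in the 31 promoters. A match is a description of the letters in this window and does not show a bound site.

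The stretch from 200 to 61 bases before the start codon is printed for the 7 genes that were lower in *spn1 141-305*, which are the 6 catalytic genes and *RPC82*, and for *RPA43* and *RPC40*, picked after their values were seen because they carry the same motifs and stayed near their wild-type level. The sequences are from the RefSeq copy of R64, read 5′ to 3′ toward the gene, with PAC and RRPE matches in capitals.

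RPA190 (chrXV:960787-960926, + strand): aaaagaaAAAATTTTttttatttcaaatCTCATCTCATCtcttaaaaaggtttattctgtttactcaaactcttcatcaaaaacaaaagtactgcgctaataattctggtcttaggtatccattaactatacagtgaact

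RPA43 (chrXV:960243-960382, - strand): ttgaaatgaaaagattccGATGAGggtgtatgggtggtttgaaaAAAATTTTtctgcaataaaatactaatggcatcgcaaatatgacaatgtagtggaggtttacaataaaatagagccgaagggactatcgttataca

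RPA135 (chrXVI:581257-581396, - strand): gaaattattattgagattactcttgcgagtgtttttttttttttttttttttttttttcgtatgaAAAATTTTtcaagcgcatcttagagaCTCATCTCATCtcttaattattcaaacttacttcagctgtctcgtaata

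RPO31 (chrXV:544206-544345, - strand): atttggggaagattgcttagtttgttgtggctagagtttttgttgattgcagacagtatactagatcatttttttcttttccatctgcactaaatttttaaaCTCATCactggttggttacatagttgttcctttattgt

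RET1 (chrXV:733518-733657, - strand): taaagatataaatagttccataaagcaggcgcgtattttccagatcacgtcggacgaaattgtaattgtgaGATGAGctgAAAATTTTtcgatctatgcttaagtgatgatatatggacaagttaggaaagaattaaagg

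RPC82 (chrXVI:919102-919241, - strand): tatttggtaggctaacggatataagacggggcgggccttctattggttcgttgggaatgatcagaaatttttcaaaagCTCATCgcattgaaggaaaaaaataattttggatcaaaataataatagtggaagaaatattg

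RPC40 (chrXVI:746896-747035, - strand): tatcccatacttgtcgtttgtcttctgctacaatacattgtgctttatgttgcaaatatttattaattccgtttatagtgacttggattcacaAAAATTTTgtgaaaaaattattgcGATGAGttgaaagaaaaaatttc

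RPO21 (chrIV:210622-210761, - strand): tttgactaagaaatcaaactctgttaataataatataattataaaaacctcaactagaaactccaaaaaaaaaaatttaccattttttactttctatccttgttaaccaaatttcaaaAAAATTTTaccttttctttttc

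RPB2 (chrXV:616732-616871, - strand): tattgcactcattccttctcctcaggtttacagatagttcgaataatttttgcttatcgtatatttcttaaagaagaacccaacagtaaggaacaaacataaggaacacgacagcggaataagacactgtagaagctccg

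PAC stands in all 4 catalytic promoters of Pol I and Pol III, as overlapping copies on the reverse strand in *RPA190* and *RPA135*. Neither catalytic gene of Pol II has PAC, and *RPO21* has RRPE. *RPA190* and *RPA43* are divergent neighbours that share 1 intergenic region of 804 bp (chrXV:960183-960986).

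Levels are given as rlog values, the regularized log2 scale of DESeq2, on which differences between libraries are shrunk, more so for weakly expressed genes. Read counts were not used, and sequencing depth is unknown. All 31 subunit genes passed the filter on low values, with means over the 9 libraries from 8.10 (*RPC17*) to 14.19 (*RPA135*). The libraries themselves differed in overall level. The median tested gene deviated from its mean over all libraries by 0.11, 0.05 and 0.02 in the 3 wild-type libraries and by −0.05, −0.04 and −0.03 in the 3 *spn1 141-305* libraries. The *spn1 K192N* replicate 1 library stood apart from the other two of its genotype, with 0.06 against −0.05 and −0.06. *SPN1* was itself 0.99 lower on the log2 scale in *spn1 141-305* than in wild-type (limma, adjusted p = 0.00638), with overlapping libraries. That allele holds only residues 141 to 305, so part of the *SPN1* reference sequence is absent from it. The value is therefore not a measure of transcript number alone. In wild-type *SPN1* ran from 11.66 to 12.95 between libraries and *HIS3*, on the same plasmid, from 12.97 to 14.32, in the same order. The part of the *SPN1* level in the results that follow was not tested.

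Per coding length the 6 weakest subunit genes in wild-type all belonged to Pol III. On the scale of rlog minus log2 of the coding length in kb, *RPC40*, which belongs to the assembly platform of Pol I and Pol III, stood highest at 12.64 ± 0.07 (SD, n = 3). It was followed by *RPB8* of the common core at 12.58 ± 0.05, the second largest Pol I subunit gene *RPA135* at 12.50 ± 0.08 and *RPO26* of the common core at 12.45 ± 0.09. Among these 4, each gene was within the summed SDs of the next in the order, though *RPC40* and *RPO26* were further apart than theirs. A gap of 0.63 lay between *RPO26* and the next gene, *RPA12*. At the low end stood 3 Pol III genes, *RPC25* at 9.75 ± 0.03 and *RPC11* at 9.70 ± 0.02, and then *RPC17* of the stalk at 9.16 ± 0.05. Of 30 pairs of neighbours in this order, 22 were no further apart than the sum of their SDs. The catalytic pairs were not matched within an enzyme, since *RPA190* (11.27 ± 0.07) was below *RPA135*, while *RPO21* (10.99 ± 0.11) was above *RPB2* (10.46 ± 0.09) and *RPO31* (10.46 ± 0.04) above *RET1* (10.04 ± 0.04). Untranslated ends and effective length are not in this scale, so small gaps between genes of very different length may not hold.

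**Figure D1:**
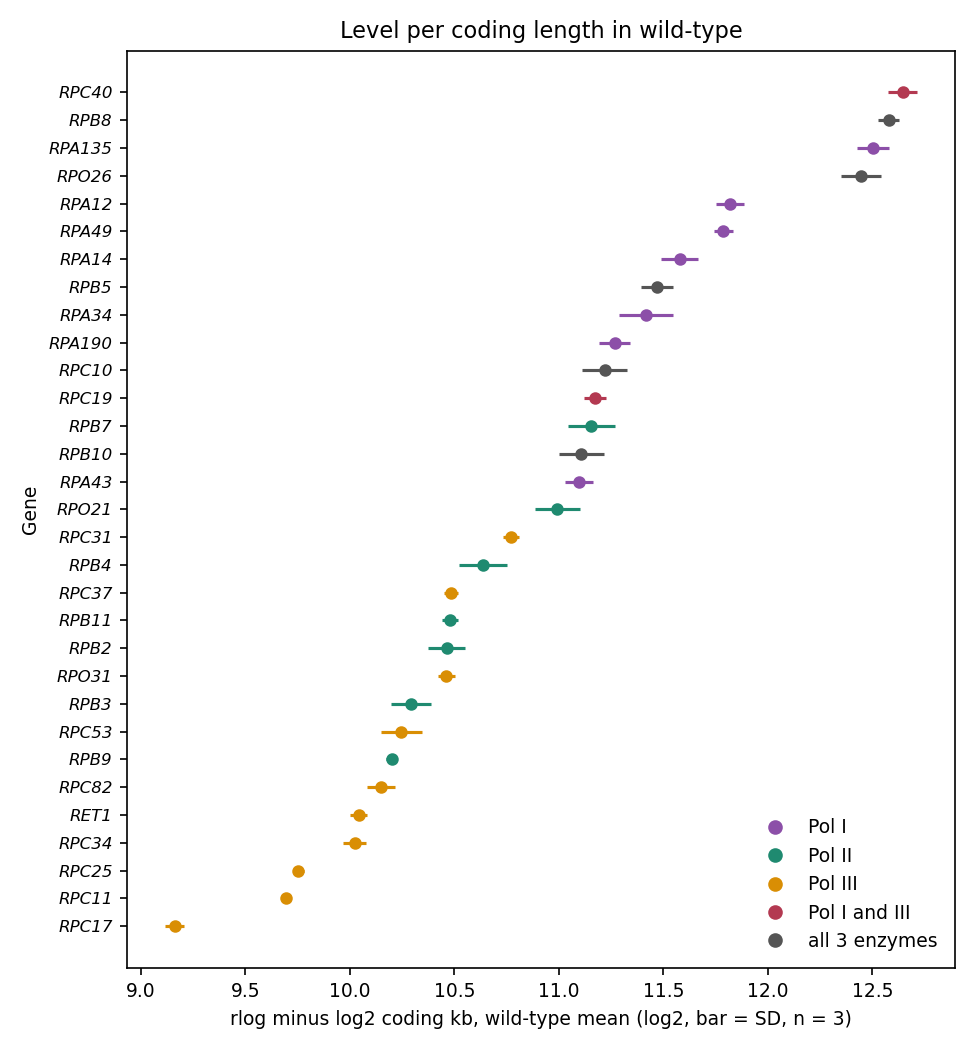
Level of each subunit gene in wild-type per coding length. The horizontal axis is rlog minus log2 coding kb, points are means of 3 libraries, bars are SDs and colours mark the enzyme. *RPC40*, *RPB8*, *RPA135* and *RPO26* lie above 12.4, and the 6 lowest genes all belong to Pol III.

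In *spn1 141-305* the mRNAs of the catalytic subunits of all 3 enzymes were lower than in wild-type. The fit called 7 of the 31 genes lower and 0 higher, among tested genes of which 18.8% were called lower and 0.453% higher. The 7 were all 6 catalytic genes and *RPC82*, the longest of the remaining subunit genes. At an unadjusted p below 0.05 there were 9, against 35.8% of tested genes. The median log2 fold change was −0.29 over the 6 catalytic genes and −0.06 over the other 25, beside −0.10 over all tested genes. Calls were made by limma on the rlog values, 3 libraries against 3, with Benjamini-Hochberg adjusted p below 0.05 over 5954 genes.

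The largest fall was in *RPO31* (YOR116C), which encodes the largest Pol III subunit. Its rlog values were 12.64, 12.58 and 12.56 in wild-type, 12.53, 12.37 and 12.37 in *spn1 K192N*, and 12.20, 12.25 and 12.25 in *spn1 141-305*. The 3 genotypes did not overlap and were ordered wild-type, *spn1 K192N*, *spn1 141-305*. The log2 fold change in *spn1 141-305* was −0.36 (SE 0.08, adjusted p = 0.00246), a level 0.779 times that of wild-type on this shrunk scale. The second largest Pol III subunit gene, *RET1* (YOR207C), had rlog values of 11.87, 11.83 and 11.78 in wild-type, 11.73, 11.57 and 11.60 in *spn1 K192N*, and 11.51, 11.60 and 11.53 in *spn1 141-305*. Both mutants were below wild-type in every library and overlapped each other, with −0.28 in *spn1 141-305* (SE 0.07, adjusted p = 0.0111).

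For Pol I, *RPA190* (YOR341W), the largest subunit gene, stood at 13.67, 13.56 and 13.53 in wild-type, 13.49, 13.35 and 13.31 in *spn1 K192N*, and 13.28, 13.34 and 13.22 in *spn1 141-305*. Every wild-type library was above every mutant library, and the log2 fold change in *spn1 141-305* was −0.31 (SE 0.08, adjusted p = 0.0124). *RPA135* (YPR010C), the second largest subunit gene, had the highest mean rlog of the 31, a scale not divided by length. It stood at 14.44, 14.33 and 14.30 in wild-type, 14.28, 14.11 and 14.12 in *spn1 K192N*, and 14.00, 14.11 and 14.00 in *spn1 141-305*. The wild-type libraries again lay above both mutants, and its log2 fold change in *spn1 141-305* was −0.32 (SE 0.09, adjusted p = 0.0119).

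For Pol II, *RPO21* (YDL140C) encodes Rpb1, the subunit whose C-terminal repeat domain binds transcription and processing factors. It stood at 13.50, 13.33 and 13.30 in wild-type, 13.29, 13.09 and 13.10 in *spn1 K192N*, and 13.04, 13.13 and 13.13 in *spn1 141-305*. The lowest wild-type library was barely above the highest *spn1 K192N* library, and the log2 fold change in *spn1 141-305* was −0.28 (SE 0.08, adjusted p = 0.0250). *RPB2* (YOR151C), the second largest subunit gene, stood at 12.44, 12.31 and 12.27 in wild-type, 12.20, 12.10 and 12.08 in *spn1 K192N*, and 12.09, 12.14 and 11.95 in *spn1 141-305*. The mutants overlapped each other below wild-type, with −0.28 in *spn1 141-305* (SE 0.08, adjusted p = 0.0160).

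*RPC82* (YPR190C), with *RPC34* and *RPC31*, encodes the Pol III subcomplex that contacts the initiation factor TFIIIB. Its rlog values were 11.20, 11.10 and 11.08 in wild-type, 11.16, 10.97 and 10.89 in *spn1 K192N*, and 10.89, 10.92 and 10.87 in *spn1 141-305*. Only the *spn1 141-305* libraries lay wholly below wild-type, with a log2 fold change of −0.23 (SE 0.08, adjusted p = 0.0320). The other genes of the trimer, *RPC34* at −0.17 (adjusted p = 0.0988) and *RPC31* at −0.16 (adjusted p = 0.0982), did not pass the test, although every *spn1 141-305* library was below every wild-type library for both. With these, 9 of the 31 genes had non-overlapping libraries in this comparison, against 45% of all tested genes.

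**Figure D2:**
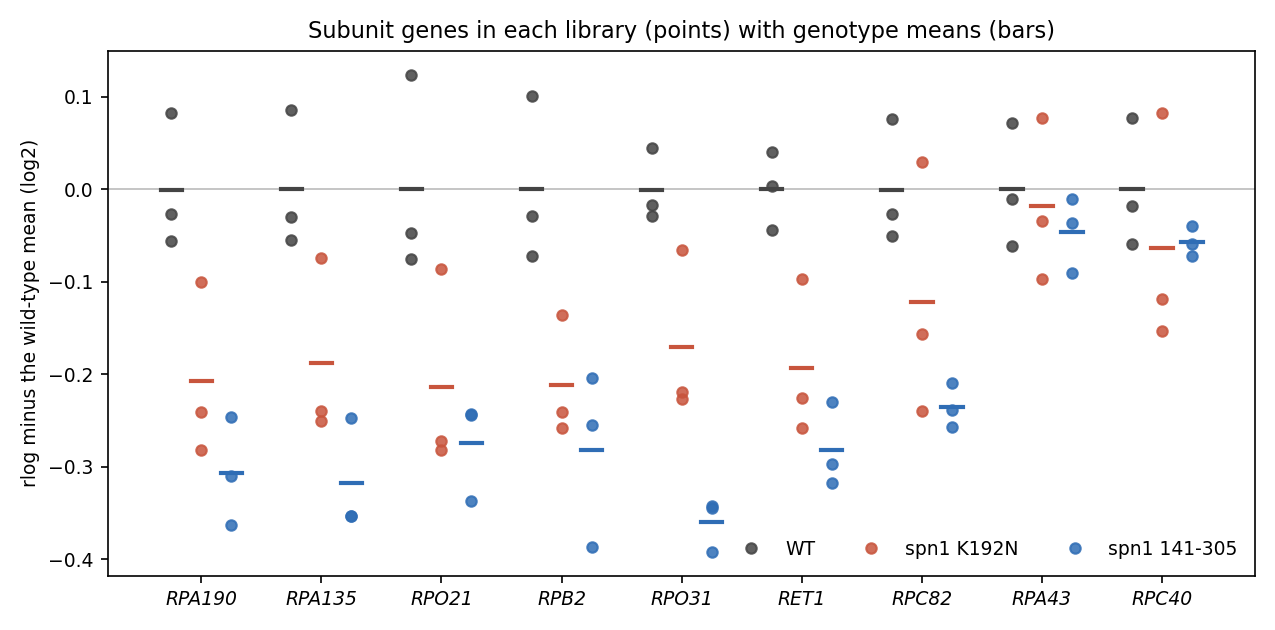
Subunit genes in each of the 9 libraries, as rlog minus the mean of the wild-type libraries of that gene (log2). Points are libraries, short bars are genotype means. For the 6 catalytic genes all mutant libraries lie below all wild-type libraries, whereas the genotypes overlap for *RPA43* and *RPC40*.

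The number of calls in *spn1 141-305* rested on single libraries. Only *RPO31* was called without wild-type replicate 1, without *spn1 141-305* replicate 1 or without *spn1 141-305* replicate 3, where 4.67%, 7.89% and 9.42% of tested genes were called lower. *RPA190*, *RPA135*, *RPB2*, *RPO31* and *RET1* were called without wild-type replicate 2 (among 9.22% of tested genes) or without *spn1 141-305* replicate 2 (among 10.7%). Without *spn1 K192N* replicate 1 there were 9 genes, now with *RPC34* and *RPC31*, among 34.2% of tested genes. When each library was centred on its median gene, which moved every fold change of this comparison up by about 0.10, the 6 catalytic genes were still called lower (among 8.30% of tested genes), and *RPC82* was not, with −0.13 (adjusted p = 0.0801).

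In *spn1 K192N* the same 6 catalytic mRNAs had the lowest log2 fold changes of the 31, but none passed the test. The fit called 0 of 31 in either direction, among tested genes of which 4.80% were called lower and 0.403% higher. At an unadjusted p below 0.05 there were 6 subunit genes, all catalytic, against 23.8% of tested genes. Their log2 fold changes lay between −0.21 and −0.17, with a median of −0.20, and the other 25 genes had a median of −0.06, beside −0.08 over all tested genes. The lowest value was that of *RPO21*, −0.21 (95% interval −0.39 to −0.04, adjusted p = 0.127), and the highest that of *RPC11*, the Pol III zinc-ribbon subunit involved in RNA cleavage, 0.003 (95% interval −0.11 to 0.12). All 3 *spn1 K192N* libraries lay below all 3 wild-type libraries for 7 genes, the 6 catalytic ones and *RPA14* of the Pol I stalk, against 18.8% of tested genes.

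The outcome in *spn1 K192N* depended on 1 library. Without *spn1 K192N* replicate 1, 8 genes were called lower, the 6 catalytic genes with *RPC82* and *RPC31*, among 34.1% of tested genes, and without replicate 1 of both wild-type and *spn1 K192N*, an alternative added after the values were seen, the 6 catalytic genes were called among 18.8%. The fold changes in the 2 mutants share the wild-type libraries and are therefore not independent.

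The mutants were then compared with each other. No subunit gene was called (0 of 31, among 1.28% of tested genes called lower and 0.621% higher), and 1, *RPO31*, had an unadjusted p below 0.05, against 12.6% of tested genes. *RPO31* was lower in *spn1 141-305* than in *spn1 K192N* by a log2 fold change of −0.19 (95% interval −0.35 to −0.03, adjusted p = 0.266), and was the 1 gene of 31 with all *spn1 141-305* libraries below all *spn1 K192N* libraries, against 12% of tested genes. With libraries centred on the median gene *RPO31* was called (−0.16, adjusted p = 0.0390), among 2.38% of tested genes called lower. For the other catalytic genes the values ran from −0.13 (*RPA135*, 95% interval −0.30 to 0.05) to −0.06 (*RPO21*, 95% interval −0.24 to 0.11), which leaves room for differences of either sign. The highest value was that of *RPC19*, the partner of *RPC40*, at 0.10 (95% interval −0.05 to 0.25).

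The remaining 24 subunit genes, none of which passed the test, hold the non-catalytic roles. In *spn1 141-305* against wild-type their log2 fold changes ran from −0.17 to 0.05, with a median of −0.06. The 6 stalk genes, *RPA43* and *RPA14* for Pol I, *RPB4* and *RPB7* for Pol II, and *RPC25* and *RPC17* for Pol III, lay between −0.11 and −0.02. The 4 genes of the TFIIF-related pairs, *RPA49* and *RPA34* of Pol I and *RPC53* and *RPC37* of Pol III, lay between −0.11 and −0.06. The assembly platform, *RPC40* and *RPC19* for Pol I and Pol III and *RPB3* and *RPB11* for Pol II, ran from −0.10 (*RPB3*) to 0.02 (*RPC19*). The zinc-ribbon subunits ran from −0.04 (*RPC11*) to 0.05 (*RPB9*, the highest of the 31, 95% interval −0.07 to 0.17). The 5 genes of the common core, *RPB5*, *RPO26*, *RPB8*, *RPC10* and *RPB10*, ran from −0.12 (*RPO26*) to 0.03 (*RPB10*).

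The same roles in *spn1 K192N* gave −0.13 to −0.02 for the stalk, −0.10 to −0.04 for the TFIIF-related pairs, −0.10 to 0.00 for the assembly platform, −0.06 to 0.00 for the zinc ribbons and −0.11 to −0.02 for the common core. The Pol III trimer ran from −0.14 (*RPC31*) to −0.09 (*RPC34*). With libraries centred on the median gene, which adds 1 constant to every fold change of a comparison (0.08 in *spn1 K192N* and 0.10 in *spn1 141-305*), the sign changed for 12 of 31 genes in *spn1 K192N* and 15 in *spn1 141-305*, those whose values lay within that constant of 0.

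The contrast between catalytic and smaller subunits can be read within each library, where a shift of equal size in all genes cancels. Shrinkage varies with level, and mean rlog was 11.67 to 14.19 for the catalytic genes and 8.10 to 12.62 for the others. Part of a difference in overall level between libraries can therefore remain in this contrast, and its size was not tested. The mean deviation of the 6 catalytic genes from their own means over all libraries, minus that of the 25 other genes, was 0.15, 0.09 and 0.13 in the wild-type libraries. It was 0.004, −0.0007 and −0.03 in *spn1 K192N*, and −0.11, −0.01 and −0.21 in *spn1 141-305*. The wild-type libraries lay above all mutant libraries and the mutants overlapped. The *spn1 K192N* replicate 1 library, which resembled wild-type in its smaller subunits (mean deviation 0.07, with 0.10, 0.05 and −0.02 in wild-type), was with the other mutant libraries on this measure. The *spn1 141-305* replicate 3 library had the lowest value, with catalytic genes at −0.16 and the other subunits at 0.05.

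Each enzyme showed this order on its own genes. The 2 catalytic genes minus the smaller genes of the same enzyme gave for Pol I 0.12 ± 0.02 (SD, n = 3) in wild-type. The 2 mutants had 0.001 ± 0.06 (*spn1 K192N*) and −0.12 ± 0.13 (*spn1 141-305*). In the same order of genotypes, the values for Pol II were 0.14 ± 0.06, −0.04 ± 0.04 and −0.10 ± 0.10, and those for Pol III were 0.11 ± 0.01, −0.004 ± 0.02 and −0.10 ± 0.06. In all 3 enzymes every wild-type library was above every mutant library. Since these genes were also used for the calls, the 3 differences are a description without a test.

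**Figure D3:**
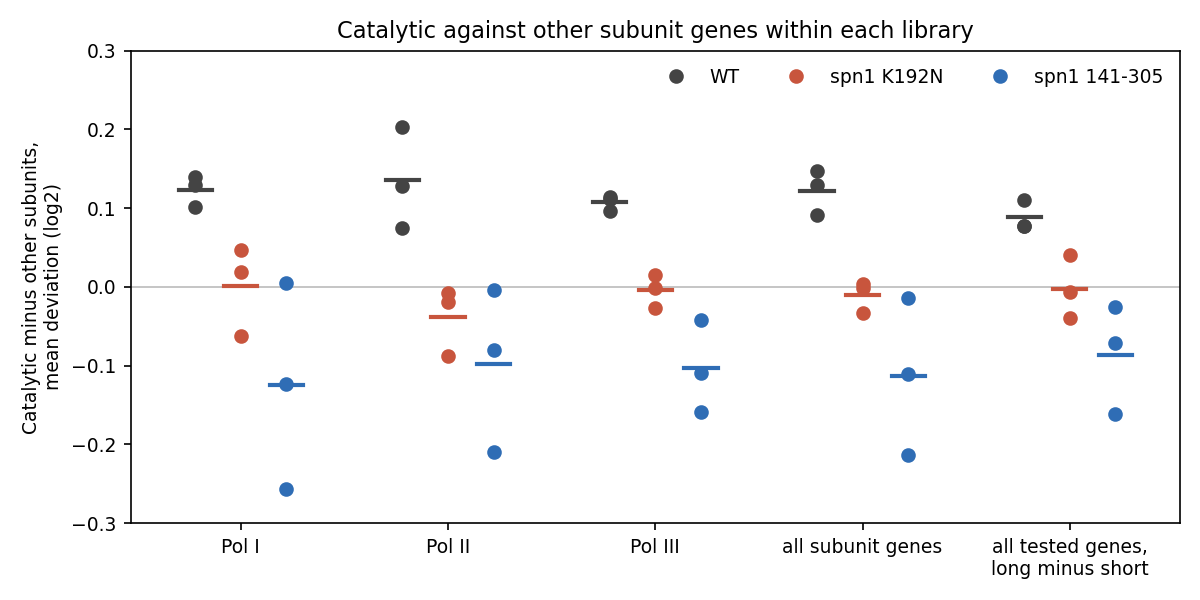
Mean deviation of catalytic genes minus that of the other subunit genes, within each library (log2). Points are libraries and bars are genotype means, shown for each enzyme, for all 31 genes, and for all tested genes of 3450 to 5202 bp minus those up to 1269 bp. Wild-type libraries lie highest in every column.

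*RPA190* and *RPA43* give this contrast across 1 shared intergenic region. This pair was chosen after its values were seen, so its values are a description. *RPA190* exceeded *RPA43* by rlog differences of 2.53, 2.50 and 2.52 in wild-type, 2.34, 2.31 and 2.33 in *spn1 K192N*, and 2.25, 2.36 and 2.17 in *spn1 141-305*. The SD over 3 libraries was 0.01 for wild-type, 0.02 for *spn1 K192N* and 0.10 for *spn1 141-305*, with no overlap between wild-type and either mutant. *RPA43* itself changed by −0.02 in *spn1 K192N* and −0.05 in *spn1 141-305* and did not pass the test in either.

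The catalytic genes were set beside other genes of their length, and the difference from them was not tested. Of 236 tested genes with coding lengths of 3450 to 5202 bp, the 6 catalytic genes included, 64.8% were called lower in *spn1 141-305*, with a median log2 fold change of −0.24. Of 2839 tested genes up to 1269 bp, the length of *RPC53* and a bound set after the calls were seen, 7.36% were called lower, with a median of −0.05. Of 2425 tested genes between these lengths, the class that holds *RPC82*, 28.5% were called lower. In *spn1 K192N* 8.90% of the long class and 3.28% of the short class were called lower, with medians of −0.14 and −0.05. For the class between, 6.31% were called lower in *spn1 K192N*. Within libraries the long genes minus the short genes gave 0.09 ± 0.02 (SD, n = 3) for wild-type, −0.002 ± 0.04 for *spn1 K192N* and −0.09 ± 0.07 for *spn1 141-305*, beside the 0.12 ± 0.03, −0.01 ± 0.02 and −0.11 ± 0.10 of the subunit genes.

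Across the 31 genes, log2 coding length and the log2 fold change had Pearson's r of −0.90 and Spearman's rho of −0.79 in *spn1 141-305*, and −0.79 and −0.64 in *spn1 K192N*. Among the 25 smaller subunit genes alone r was −0.68 in *spn1 141-305* and −0.32 in *spn1 K192N*. These are descriptions over genes measured in the same libraries. Mean rlog, which is not divided by length, had r of 0.82 with log2 coding length. The wild-type level per coding length had r of −0.04 with log2 coding length. Mean rlog had r of −0.74 with the fold change in *spn1 141-305*. The shrinkage of rlog acts with level in the same direction, and its part in this relation was not tested.

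**Figure D4:**
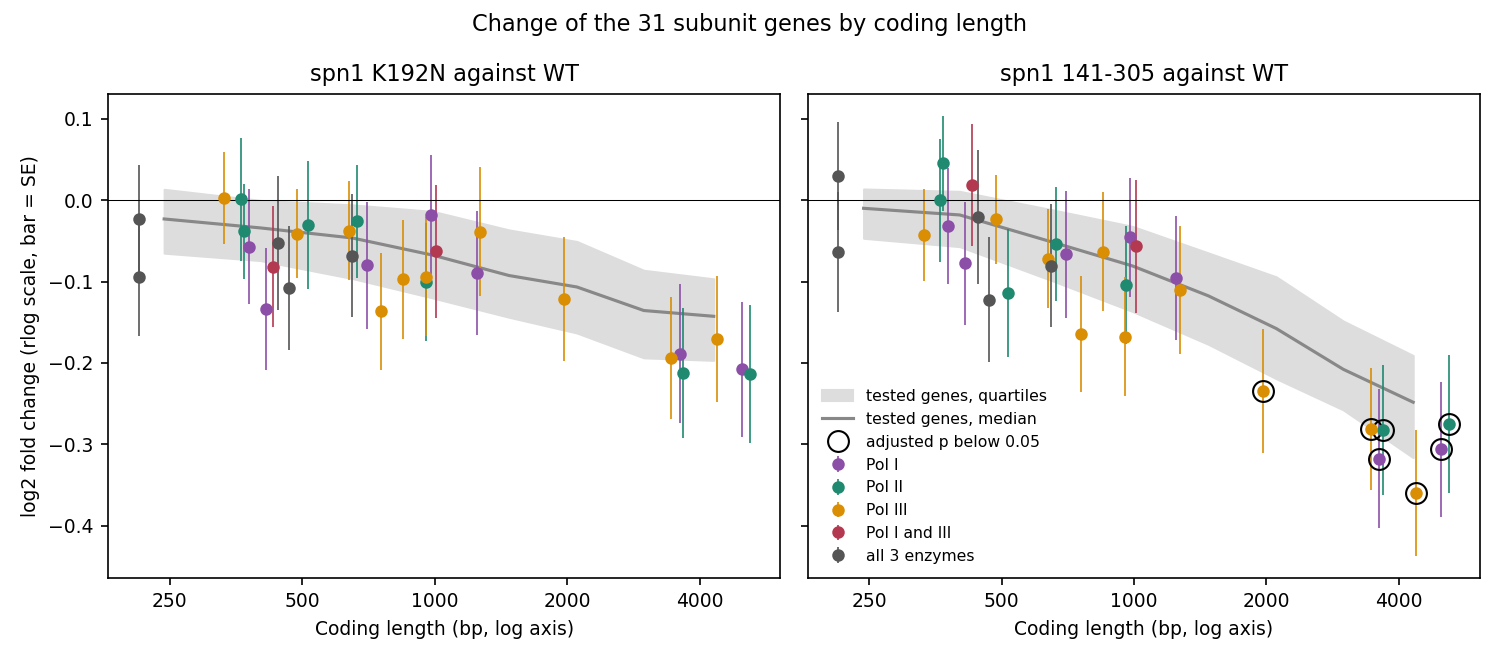
Log2 fold change of the 31 subunit genes against coding length (log axis), for each mutant against wild-type. Points are genes with standard errors, coloured by enzyme, rings mark adjusted p below 0.05, and the grey line and band are the median and quartiles of tested genes in length bins. The 7 called genes in *spn1 141-305* are the 7 longest.

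Called genes were found both with and without PAC. In *spn1 141-305*, 5 of 16 genes with PAC were called lower and 2 of 15 without it, beside 18.8% of tested genes. The 5 were the 4 catalytic genes of Pol I and Pol III and *RPC82*, and the 2 were *RPO21* and *RPB2*. PAC was in 4 of the 6 catalytic genes, and all 6 were called. It was in 12 of the other 25 genes, where 1 gene, *RPC82*, was called. The part of PAC was not tested. The median log2 fold change was −0.10 with PAC and −0.05 without it in *spn1 141-305*, and −0.10 and −0.05 in *spn1 K192N*.

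**Figure D5:**
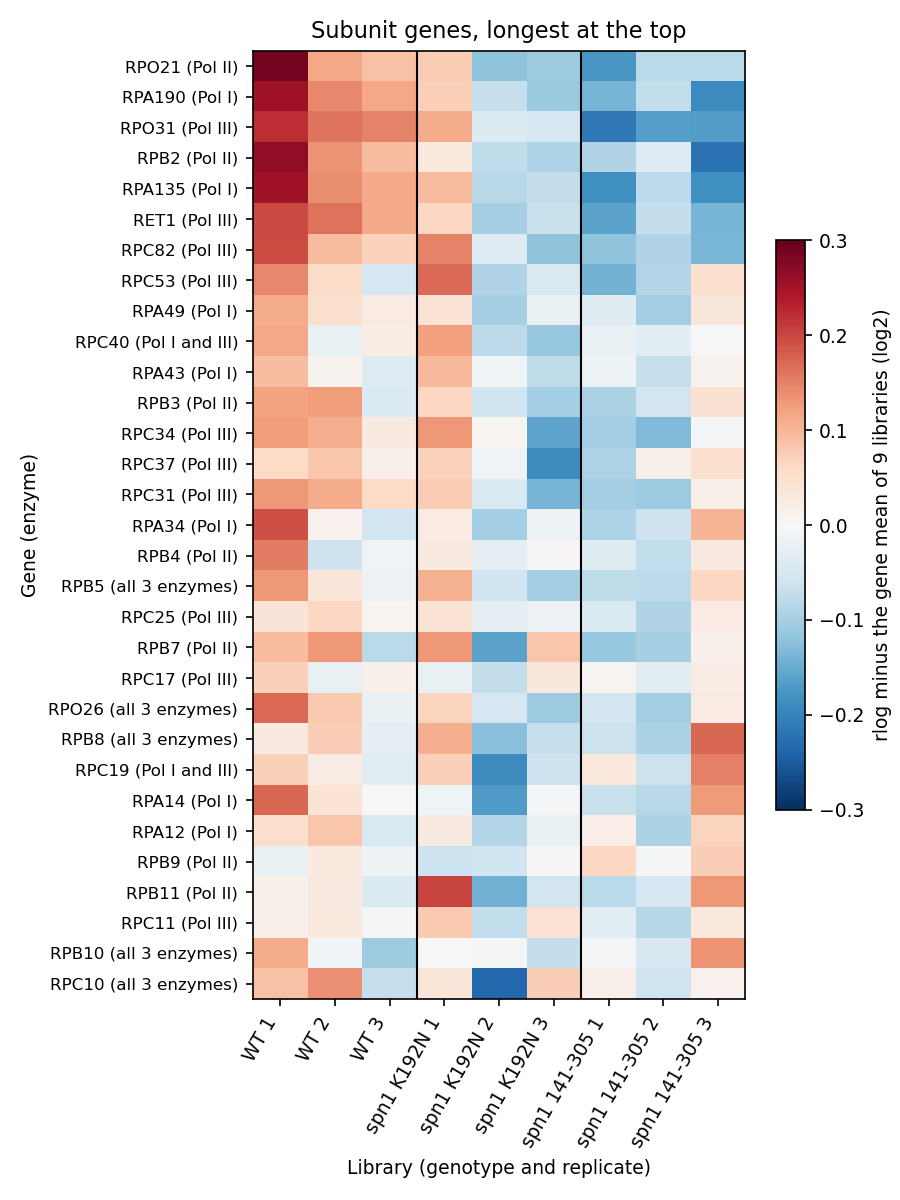
Deviation of each subunit gene from its mean over 9 libraries (log2, colour), with genes ordered by coding length from the longest at the top and libraries grouped by genotype. The upper 6 rows, the catalytic genes, are above their means in all wild-type libraries and in *spn1 K192N* replicate 1, and below them in the other mutant libraries.

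The factors that bring the enzymes to their promoters were examined in 46 genes from hand-written lists, all of which were tested. In *spn1 141-305*, 8 of the 46 were called lower and 0 higher, against the 18.8% and 0.453% of tested genes given above. Of 9 Pol I factor genes, 4 were lower, with a list median of −0.16. They were *RRN3* (−0.35, SE 0.07, adjusted p = 0.00202), whose product recruits Pol I, and *RRN6* (−0.31), *RRN7* (−0.25) and *RRN5* (−0.25), whose products belong to the core factor and the upstream activating factor. *RRN3* stood at 10.68, 10.50 and 10.49 in wild-type, 10.52, 10.36 and 10.38 in *spn1 K192N*, and 10.22, 10.24 and 10.16 in *spn1 141-305*, so that *spn1 141-305* lay below both other genotypes.

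Of 10 Pol III factor genes 1 was lower, *TFC4* (−0.24), a subunit of TFIIIC, with a list median of −0.14. Of 18 general factor genes of Pol II 3 were lower, *SSL2* (−0.27) and *RAD3* (−0.20), the helicases of TFIIH, and *TFA1* (−0.19), the large subunit of TFIIE, with a list median of −0.11. None of 9 polymerase assembly genes was called, and 2 had an unadjusted p below 0.05, against 35.8% of tested genes. In *spn1 K192N* the called genes were *RRN6* (−0.25, adjusted p = 0.0387) and *RRN5* (−0.22, adjusted p = 0.0433), 2 of 46 beside the 4.80% of tested genes called lower. The list medians there were −0.10 for Pol I, −0.09 for Pol III, −0.08 for Pol II and −0.08 for assembly. *RRN5*, at 1092 bp, was the 1 called gene among subunits and factors that was shorter than *RPC53*. The other called factor genes, of 1449 to 3078 bp, fall between the 2 length classes above. Of all tested genes there, 28.5% were called lower in *spn1 141-305* and 6.31% in *spn1 K192N*. No factor gene was called between the mutants, where 3 of 46 had an unadjusted p below 0.05, against 12.6% of tested genes.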

How the data were processed

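RNA-seq libraries of 9 cultures, 3 per genotype, were grouped by their labels. The authors ran Salmon v1.9 against cDNA of S. cerevisiae (Ensembl, R64) and *S. pombe* (PomBase) with both genomes as decoys, set DESeq2 v1.30.1 size factors on the *S. pombe* genes, and deposited log2 values on the rlog scale. The 3 deposited comparison tables, with the authors' fold changes and p-values, were not used, and chromatin (MNase-SSP) samples were not analysed here. Depth is unknown.

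Subunits, factor lists and motifs were written by hand, and members and lists were chosen with earlier results of these data known. The 5954 genes with mean rlog of at least 3.32 (log2 of 10) were fitted with limma 3.58.1 in R 4.3.3 (a means model of the genotypes, trended eBayes, two-sided tests, Benjamini-Hochberg over all tested genes, called at adjusted p below 0.05). P-values set each difference against the spread between these cultures. For each gene that spread is pooled over the genotypes and drawn toward a trend over all tested genes. Named genes were the catalytic subunits, every called subunit gene, the lowest and highest fold change of each comparison, and at most 4 called factor genes, those with the largest change, in each comparison. In *spn1 141-305* the other called factor genes were added afterwards, as were *RPA43* and *RPC40*. Coding lengths, positions and promoters came from RefSeq R64, the same assembly, in which 5896 identifiers matched. Other steps used Python 3.11.15, scipy 1.17.1, pandas 2.3.3, matplotlib 3.10.9 and numpy 2.4.6. The fit was tested on simulated data with noise drawn independently for each gene and library. Differences in overall level between libraries, which are present here, were not simulated. Alternatives covered the filter, centring, prior variance, genotypes in the fit, replicate block, threshold and each library left out.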

Additional observations from a re-analysis of the deposited data

How the results depend on the processing

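The counts of called subunit genes, 0, 7 and 0 for *spn1 K192N* against wild-type, *spn1 141-305* against wild-type and between the mutants, rest on rlog values of 3 libraries a genotype with unknown depth. With each library left out in turn they ranged from 0 to 8 and from 1 to 9, and stayed 0 between the mutants. *RPO31* was called lower in *spn1 141-305* under every alternative. Leaving out replicate 1 of wild-type and *spn1 K192N* together gave 6 in *spn1 K192N*, and centring gave 1 between the mutants. Replicate numbers were not used as pairs in the main fit. Same-numbered deviations correlated between −0.28 and 0.25, and differently numbered ones between −0.45 and 0.34. Deviations from a mean of 3 libraries sum to 0, so these correlations cannot exclude a shared batch. A replicate block gave 0, 7 and 0 called subunit genes, where 7.88%, 23.8% and 1.70% of tested genes were called lower, and with centring 0, 6 and 0, among 3.11%, 8.11% and 2.27%.

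Factor and assembly genes called in *spn1 K192N* were 2 as fitted, 6 without both first replicates, 1 with only the 2 genotypes compared, 0 with centring (with or without the block), no filter or no variance trend, and 0 to 15 with 1 library left out. In *spn1 141-305* they were 8 as fitted, 4 with centring (3 lower and 1 higher, also with the block), 19 with only the 2 genotypes, 15 at adjusted p below 0.1, and 2 to 18 with 1 library left out. Between the mutants they were 2 with centring (also with the block) and 2 without both first replicates, against 0. The share of all tested genes called lower moved as well. In *spn1 141-305* it was 18.8% as fitted, 8.30% with centring and 34.9% with only the 2 genotypes, and in *spn1 K192N* it was 4.80% as fitted, 3.28% with centring and 18.8% without both first replicates. The causes were not tested.

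Fold changes near 0 changed sign. With centring *RPA43* had 0.0588 (*spn1 K192N*) and 0.0555 (*spn1 141-305*), and *RPC40* had 0.0446 (*spn1 141-305*). Without both first replicates *RPC11* was −0.0274 in *spn1 K192N* and *RPO21* 0.0027 between the mutants. With 1 library left out *RPA43* ran from −0.0655 to 0.0216 and *RPC11* from −0.0282 to 0.0473 in *spn1 K192N*, *RPC19* from −0.0376 to 0.0704 in *spn1 141-305*, and *RPO21* from −0.0956 to 0.0027 between the mutants.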
